A study of Mus musculus with 24 samples.

Results

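The m6A peaks of MII oocytes and zygotes were set against those of the other 4 stages of mouse preimplantation development. The members are protein-coding genes with a peak in at least 3 of the 4 MII oocyte and zygote libraries and in at most 1 of the other 8, here called MII/zygote-side genes, and genes with the reverse pattern, a peak in 0 or 1 of the 4 and in 7 or 8 of the 8, here called reverse-side genes. There were 217 MII/zygote-side genes, 2.19% of the 9903 protein-coding genes with a peak in any library. The reverse side held 337 genes, 3.4% of the same 9903. Among the 31376 regions made by merging the peaks of all libraries, 1235 (3.94%) met the first rule and 470 (1.5%) met the reverse. Since the rule is the presence of a peak, these patterns describe the members and are not tested on them.

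All samples came from C57BL/6N mice, labelled as 8 weeks old for every stage, with 2 biological replicates per stage. Each replicate was a pool. GV oocytes (49 per pool) were taken from 8-week-old females 48 h after PMSG, a gonadotropin that stimulates follicle growth, and held in IBMX, which blocks the resumption of meiosis. MII oocytes (100 and 110) were collected 14 h after hCG, the hormone that triggers ovulation. Zygotes (100 and 100) came 27 to 28 h, 2-cell embryos (100 and 100) 39 to 43 h, 8-cell embryos (100 and 51) 68 to 70 h and blastocysts (100 and 100) 92 to 94 h after hCG, from superovulated females mated with males of the same age. RNA was depleted of ribosomal RNA, sheared, and immunoprecipitated with an m6A antibody by picoMeRIP-seq, a form of m6A immunoprecipitation for small inputs. The 12 immunoprecipitated libraries have a peak list each. No peak list of an input library was used here. Absence of a peak can therefore mean no mark, no transcript or a signal under the detection limit, and fewer cells and less RNA per cell cannot be told apart.

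N6-methyladenosine (m6A) is a methyl mark on adenosines inside RNA, placed by the METTL3 and METTL14 complex and read by proteins such as the YTH family. In most cells it lies mainly in long internal exons and around stop codons, and it can shorten a transcript's life or promote its translation. A fully grown oocyte stops transcribing before it is ovulated, and the egg and early zygote live on stored maternal RNA until the embryonic genome is activated, in the mouse chiefly at the 2-cell stage. The labels' protocols state that the GV oocytes were of the surrounded-nucleolus type, which is itself known to be transcriptionally quiet, and mouse zygotes are known to begin low-level transcription late in the first cell cycle. Transcriptional silence therefore does not divide the 4 libraries from the 8, and the groups are named here by their stages.

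Some MII/zygote-side peaks lay on annotated gene starts, and the bases there show both unrelated starts and a family of similar ones. Of the start windows in RefSeq (GRCm38.p6, from 250 bases before to 50 after an annotated start; found for 17492 of 21887 protein-coding genes), 42 windows of 38 genes held a peak summit in at least 3 of the 4 and at most 1 of the 8. They were among 21263 windows of protein-coding genes. The pattern was met by 9 of the 179 MII/zygote-side genes with a window, and by 35 of the 8005 genes with a peak and a window. It repeats the membership rule on a part of the gene, so a higher share among members is largely built in. No window of a gene with a peak had the reverse pattern. Few could have it, since only 3 such genes had a window summit in at least 7 of the 8, against 67 in at least 3 of the 4. The 70 bases before the start are in lower case and the first 30 transcribed bases in capitals, 5′ to 3′ along the gene. Ybx2 encodes a germ-cell Y-box protein that binds maternal mRNA, Cks1b a cyclin-dependent kinase subunit and Ndufa8 a subunit of mitochondrial complex I. The 3 Fbxw genes encode F-box proteins of a tandem cluster on chromosome 9.
Ybx2, chr11:69935829-69935928, plus strand: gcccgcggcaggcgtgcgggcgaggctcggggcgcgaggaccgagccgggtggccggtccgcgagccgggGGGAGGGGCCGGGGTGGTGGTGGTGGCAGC
Cks1b, chr3:89418262-89418361, minus strand: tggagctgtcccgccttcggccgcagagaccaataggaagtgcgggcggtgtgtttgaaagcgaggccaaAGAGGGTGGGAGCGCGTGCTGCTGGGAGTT
Ndufa8, chr2:36049309-36049408, minus strand: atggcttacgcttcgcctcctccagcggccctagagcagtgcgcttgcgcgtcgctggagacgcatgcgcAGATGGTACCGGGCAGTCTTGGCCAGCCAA
Fbxw24, chr9:109626030-109626129, minus strand: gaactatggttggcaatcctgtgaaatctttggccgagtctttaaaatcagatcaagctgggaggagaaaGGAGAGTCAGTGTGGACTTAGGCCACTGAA
Fbxw19, chr9:109495825-109495924, minus strand: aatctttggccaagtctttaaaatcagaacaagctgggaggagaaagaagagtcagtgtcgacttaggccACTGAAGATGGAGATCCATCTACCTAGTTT
Fbxw16, chr9:109449111-109449210, minus strand: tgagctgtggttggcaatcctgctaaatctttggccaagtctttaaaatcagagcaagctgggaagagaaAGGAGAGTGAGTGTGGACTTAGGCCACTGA

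Summits lay in the Ybx2 and Ndufa8 windows in all 4 MII oocyte and zygote libraries and in GV oocyte replicate 2. The Cks1b window held a summit in the 4 and in none of the 8. The Fbxw24 window held one in 3 of the 4, Fbxw19 in both zygote libraries and Fbxw16 in zygote replicate 2, with none in the 8. Over 12 Fbxw genes of the cluster with a window, 300-base windows compared in pairs matched at 46.1% to 96.7% of positions (median 82.8%, 66 pairs), with 13 pairs over 90%. How reads were assigned between such copies was not tested. The pentamer GGACT, a common form of the m6A consensus, was present on the transcribed strand in 13 of the 42 windows (31.0%) and in 26.7% of all 21263 windows of that length. On either strand it was present in 25 (59.5%) and in 46.6% of all windows. The annotated first base was A in 18 of the 42 (42.9%) and in 37.4% of all windows. These are matches of letters and no test was made of them.

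The naming rule ranks genes by the difference in the share of marked libraries and then by peak strength, so the genes it names first had peaks in all 4 libraries and none in the 8. Peak strength is given as the authors' fold enrichment of each gene's best peak. As a measure that can be set beside other libraries, its percentile by −log10 q-value among all peaks of its own library is also given. Ywhaz, the 14-3-3 zeta adaptor that binds phosphorylated proteins (chr15:36770261-36802984), came first by this rule. By mean percentile alone Rbbp7, a histone-binding protein marked in 3 of the 4 and 0 of the 8, stood higher (97.4 against 96.9 for Ywhaz). The folds of Ywhaz were 2.90 and 2.93 in the MII oocyte libraries and 3.20 and 4.79 in the zygote libraries. These peaks stood at the 94.7th to 98.5th percentile of their libraries although their folds were modest. The peak lay at chr15:36790870-36791084 in zygote replicate 2, inside the gene body.

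Fbxw22 (chr9:109378400-109404294) had folds of 18.6 and 8.38 in MII oocytes and 15.6 and 20.1 in zygotes. Slbp, whose product binds the stem-loop of histone mRNAs and is needed to translate them, had folds of 3.74 and 2.41 in MII oocytes and 5.05 and 3.59 in zygotes. Its best peak lay 431 bp from the 5′ end of a gene of 12520 bp. Gle1, an mRNA export factor, had folds of 9.47, 5.73, 4.79 and 11.1 in the same order. In these 3 genes both replicates of both stages had a peak, with none listed in GV oocytes or in any embryo past the zygote.

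Bmp5, a secreted BMP ligand, had folds of 5.41 and 3.48 in MII oocytes and 12.0 and 4.75 in zygotes, from a peak 52629 bp into its gene body of 124952 bp. Psma2, a core subunit of the proteasome, had folds of 7.30, 6.29, 3.99 and 2.86. The other genes named by the fixed rule were Ppt2, a lysosomal thioesterase, Pls1, an actin-bundling plastin, Dbi, which binds acyl-CoA, Fbxw15, Rnf181, Hypk, Shf, Serf2 and Gramd1c. Their median folds over the 4 libraries ran from 2.77 (Serf2) to 11.3 (Hypk). The plot of peak percentiles shows that zygote replicate 1, the shortest list, held the weakest rank of the 4 for some genes, such as Pls1, Gramd1c and Serf2. For Slbp, Fbxw15 and Rnf181 the same library held the strongest.

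**Figure D1:**
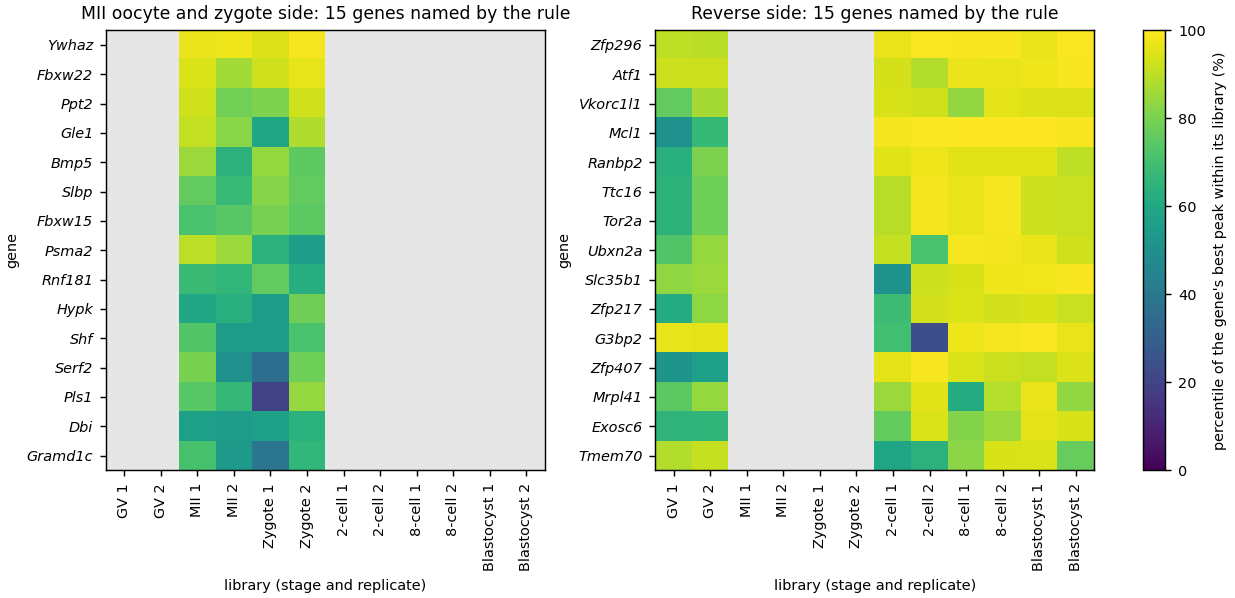
Percentile of each gene's best peak within its library (colour, %) for the 15 genes named on each side (rows) in the 12 libraries (columns); grey marks no peak. The left genes are grey in the 8 libraries and the right genes in the 4, as the rule requires, and Mcl1 reached 98.4 or more in the 6 libraries from the 2-cell stage on against 50.6 and 67.1 in GV oocytes.

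A few further MII/zygote-side genes outside the naming rule and the lists are given as examples, picked after their values were seen and with no count or test behind them. Spc25, a subunit of the NDC80 kinetochore complex, and Cenpn, a centromere protein, each had a peak in all 4 and in 1 of the 8. Nusap1, a spindle protein, Kif22, a chromosome-bound kinesin, Racgap1, a part of the centralspindlin complex, and Meikin, a kinetochore protein of meiosis I, had the same count. Melk, a cell-cycle kinase, had folds of 2.22 and 2.18 in MII oocytes and 2.87 and 7.86 in zygotes, and no peak in the 8. Gtf2a1l, the germ-cell form of a TFIIA subunit, had folds of 5.92 and 6.72 in MII oocytes and 7.09 and 7.72 in zygotes, also with none in the 8.

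The reverse-side genes had peaks in GV oocytes, none or 1 in the MII oocyte and zygote libraries, and peaks again from the 2-cell stage on. Mcl1, an anti-apoptotic BCL2-family protein (chr3:95656944-95663179), had folds of 8.37 and 11.2 in GV oocytes. In the 2-cell libraries they were 7.91 and 14.9, in the 8-cell libraries 17.3 and 13.5 and in the blastocyst libraries 14.3 and 10.6. None of the 4 MII oocyte and zygote libraries listed a peak. Zfp296, a zinc-finger protein of early embryos, had folds of 2.33 and 2.06 in GV oocytes, and over the 8 libraries the lowest was 2.06, the median 5.33 and the highest 15.4. Its best peak lay 500 bp from the 3′ end.

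Atf1, a CREB-family transcription factor, had a lowest fold of 4.18, a median of 6.66 and a highest of 21.5 over the 8. Ranbp2, a nuclear pore component and SUMO ligase, ran from 4.63 to 11.7 with a median of 8.60, and G3bp2, a stress-granule RNA-binding protein, from 1.90 to 8.02 with a median of 5.32. Exosc6, a subunit of the RNA exosome, ran from 4.03 to 14.9 and Mrpl41, a mitochondrial ribosomal protein, from 5.69 to 19.3. The remaining named genes were Vkorc1l1, Ubxn2a, Slc35b1, Zfp217, Zfp407, Tmem70, and Ttc16 with Tor2a. Ttc16 and Tor2a overlap and have the same best peak in each of the 8 libraries, so they count as 1 signal. In all, 24 reverse-side genes shared at least 1 peak with another reverse-side gene, in 13 pairs, and 0 genes did so on the MII/zygote side.

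Of 21 gene lists, 16 held a member on either side, with 15 MII/zygote-side and 28 reverse-side genes in them. Among the 19 oocyte-specific genes with a peak, 2 were on the MII/zygote side and 0 on the reverse side, and the median difference in the share of marked libraries was 62.5 percentage points (4 minus 8), against -12.5 over all 9903 genes. The members were H1f8, the oocyte linker histone, with folds of 1.59, 1.30, 2.88 and 1.66 in the 4, and Nobox, an oocyte homeobox factor, marked in 3 of the 4 and 0 of the 8. Of 19 maternal-effect genes with a peak, 0 were members on either side, with a median difference of 12.5 points. The median gene of these 2 lists was marked in 4 of the 4 and in 2 of the 8 (oocyte-specific) or 4 of the 8 (maternal-effect).

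Regulators of maternal mRNA decay and translation gave 2 MII/zygote-side genes of 42 with a peak. Ybx2 had folds of 7.48 and 6.38 in MII oocytes and 8.99 and 7.88 in zygotes, beside 3.36 in GV oocyte replicate 2. Cnot3, a subunit of the CCR4-NOT deadenylase, had folds of 2.61 and 2.53 in MII oocytes and 5.32 and 2.36 in zygotes, beside 2.93 in 2-cell replicate 2. Of 27 meiosis regulators with a peak, 1 was on the MII/zygote side, Bub1b of the spindle checkpoint, marked in 3 of the 4, and 0 were on the reverse side.

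Translation genes were found on both sides. Of 36 initiation factors with a peak, 2 (5.56%) were MII/zygote-side (Eif2b4 and Eif3g) and 4 (11.1%) reverse-side, beside 2.19% and 3.4% of all genes. The reverse-side members were Eif4e, which binds the cap, Larp1, which binds mRNAs of the translation machinery, Eif1a and Eif1b. Eif4e had no peak in the 4 and folds from 2.16 to 4.62 in the 8. Of 52 cytosolic ribosomal protein genes with a peak, 0 were MII/zygote-side and 4 (7.69%) reverse-side, namely Rpl17, Rpl29, Rpl39 and Rpl41. Ribosomal protein genes have many processed copies in the genome, so their read assignment is uncertain. No call of this kind was made for a list as a whole.

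The reverse side held 1 gene of the m6A machinery and 8 of the 2 transcription lists. Ythdf1, a cytoplasmic m6A reader (chr2:180904377-180920936), was the single member (5.56%) among 18 m6A writers, readers and erasers with a peak. Its folds were 2.41 and 2.95 in GV oocytes, 4.80 and 4.51 in 2-cell embryos, 5.80 and 5.95 in 8-cell embryos and 5.35 and 4.66 in blastocysts, and none of the 4 listed a peak. Over all 9903 genes 3.4% were reverse-side and 2.19% MII/zygote-side. Of 78 RNA polymerase II and general transcription genes with a peak, 5 (6.41%) were reverse-side (Gtf2b, Taf12, Polr2l, Tbpl1 and Med4) and 1 (1.28%) was MII/zygote-side (Polr2f). Of 51 genes of RNA polymerase I and ribosome biogenesis, 3 (5.88%) were reverse-side (Rrs1, Taf1b and Rrp12) and 1 (1.96%) was MII/zygote-side (Nol10).

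Smaller counts came from the other lists. Mcl1 and Klf2, a Krüppel-like factor of pluripotent cells, were the 2 reverse-side genes of 35 immediate early and MYC family genes, and Klf2 and Fgfr2 the 2 of 41 pluripotency and lineage genes. Klf2 had a fold of 5.07 in MII oocyte replicate 1 and from 6.51 to 21.5 in the 8. Ago2, the small-RNA-guided slicer, and Setdb1, an H3K9 methyltransferase, were reverse-side among 20 silencing genes, where Tdrd1, a piRNA pathway Tudor protein, was MII/zygote-side. Setdb1 was also the 1 of 48 histone lysine methylation genes, Sirt1 the reverse-side and Rbbp7 the MII/zygote-side gene of 53 acetylation and remodelling genes. Ndufa8 and Ndufs3 stood against Cox7b and Atp5k among 38 oxidative phosphorylation genes, Dnajc3 against Ppp1r15a among 29 stress-response genes and Ptbp2 against Hnrnpa0 among 62 splicing genes. The 28 chaperone genes and 27 2-cell and genome activation genes with a peak gave 0 members on either side.

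Markers of other cell types gave no members. Of 29 cumulus and granulosa genes, 10 had a peak in any library, with 2 to 6 marked in each of the 4 libraries and 1 to 6 in each of the 8. Nr5a2 had a peak in all 12 libraries, Cyp11a1 and Kitl in 3 of the 4 and 2 of the 8, Inhba in 2 and 2, Hsd3b1 in 1 and 1, and Has2 in 1 of the 4. Inhbb and Cyp19a1 were marked in 2 of the 8 and Col4a1 and Amhr2 in 1. The other 19 genes of this list, among them the defining markers Amh, Fshr, Foxl2, Ptx3 and Tnfaip6, had no peak in any library. Of 30 sperm and spermatid genes, 3 had a peak, among them Prm2, a protamine, in all 4 and in 2 of the 8. Their part in the results was not tested.

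A gene cluster on chromosome 9 lies in the 1-megabase window with the most MII/zygote-side regions (14, chr9:109000001-110000000). The 15 Fbxw genes between chr9:109139454-109790660 included 9 MII/zygote-side genes (Fbxw13, Fbxw14, Fbxw15, Fbxw16, Fbxw18, Fbxw19, Fbxw22, Fbxw24 and Fbxw25). Over all 9903 genes with a peak, 2.19% were MII/zygote-side. Of the 40 merged regions in this interval, 13 were MII/zygote-side and 0 reverse-side, beside 3.94% and 1.5% of all regions. At a share of 1.5%, the 0 reverse-side regions tell nothing about the cluster. MII oocyte libraries marked 9 and 15 of the 15 genes and zygote libraries 13 and 12. GV oocyte libraries marked 4 and 2, the 2-cell libraries 1 each, and the 8-cell and blastocyst libraries 0. The 9 Fbxw genes elsewhere in the genome, 5 of them with a peak, held 0 members, too few genes to set beside 2.19%. Among them Fbxw7, the tumour-suppressor ubiquitin ligase subunit, had a peak in all 12 libraries. With the similar windows noted above, the 9 genes may not be 9 independent signals.

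**Figure D2:**
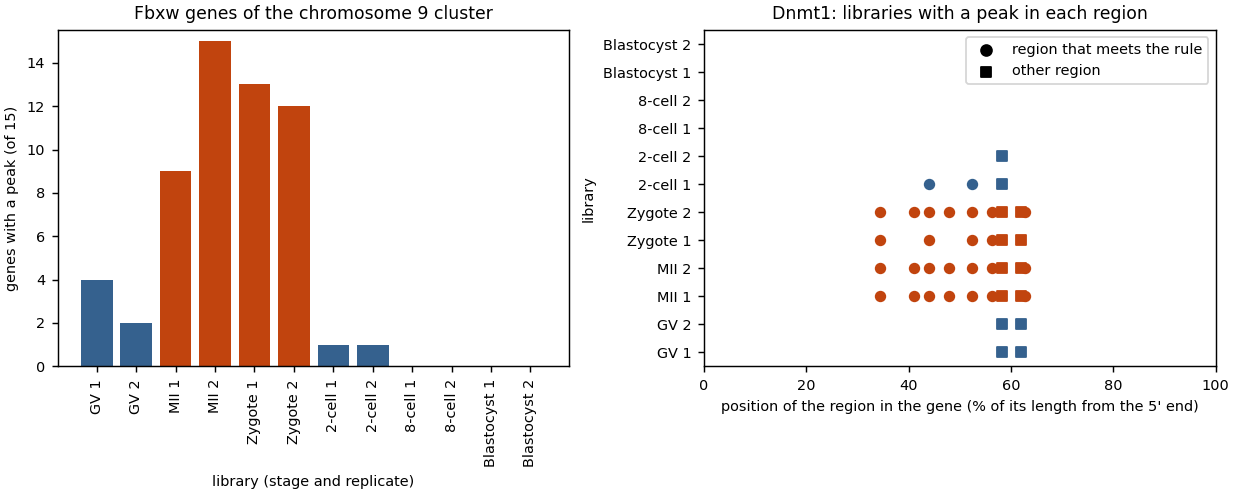
Left, number of the 15 Fbxw genes of the chromosome 9 cluster with a peak (vertical axis) in each library (bars). Right, position of the merged regions of Dnmt1 (horizontal axis, % of gene length from the 5′ end) in each library (rows); circles meet the MII/zygote rule. The MII oocyte and zygote libraries (orange) marked 9 to 15 Fbxw genes and the other libraries (blue) 0 to 4.

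Single regions show that the rule picks extra sites in genes that are marked elsewhere too. Dnmt1, the maintenance DNA methyltransferase, whose oocyte form is a maternal store (chr9:20907206-20959888, minus strand), held 9 merged regions, of which 7 were MII/zygote-side, the highest number in any gene. They lay between 34.5% and 62.8% of the gene from its 5′ end. The strongest, chr9:20941478-20941964, had folds of 4.45 and 5.82 in MII oocytes and 6.92 and 4.27 in zygotes, and no peak in the 8. The 2 other regions of Dnmt1 were marked in both GV libraries as well, and 1 of them in both 2-cell libraries. Dnmt1 was therefore no member as a gene, with peaks in 4 of the 4 and 4 of the 8. Rdx, the membrane linker radixin, held 5 such regions, and 7 other genes 4 each, among them Ktn1, Enah and Psip1.

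The 5 top MII/zygote-side regions lay in Ywhaz, Dnmt1, Nlrp14, the overlap of Cacna1d with Dcp1a, and Pakap. Nlrp14 is an oocyte gene needed for early development, and its region chr7:107180983-107181223 had folds of 6.25 and 7.39 in MII oocytes and 11.7 and 8.15 in zygotes. The 5 top reverse-side regions lay in Zfp296, Atf1, Vkorc1l1, Mcl1 and Mrpl40. In the 4 libraries that define them, the peaks in MII/zygote-side regions stood at median percentiles of 42.8 to 52.8, so near the middle of their libraries. Peaks in reverse-side regions stood at 40.7 and 45.2 in GV oocytes, 58.2 and 60.5 in 2-cell embryos, and 68.7 to 75.3 in 8-cell embryos and blastocysts. These ranks describe chosen regions and have no test.

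Most genes under an MII/zygote-side region were no members themselves. Of 763 protein-coding genes over such a region, 573 (75.1%) had a peak in at least 2 of the 8 libraries and 113 had one in all 8. On the reverse side, 177 of 454 genes (39.0%) had a peak in at least 2 of the 4. The 2 shares rest on unlike cut-offs, 2 of 8 and 2 of 4 libraries, and do not compare the sides. Over all 9903 genes with a peak, the median gene was marked in 1 of the 4 and 3 of the 8. There were 22 genes with both kinds of region, among them Nop58, a core protein of box C/D snoRNPs, Top1, a DNA topoisomerase, Dnajb6, a chaperone, and Calu, a calcium-binding protein. In Nop58 the MII/zygote-side regions lay 7312 and 10920 bp from the 5′ end and the reverse-side region 265 bp from the 3′ end. In Calu the positions were 29.5% and 92.4% of the gene from the 5′ end. Of the 14 such genes with a known strand, 11 had the reverse-side region nearer the 3′ end, with median positions of 56.3% (MII/zygote side) and 96.0% (reverse side).

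The 2 kinds of region differed in where they lay along genes, a property the rule did not use. Of 623 MII/zygote-side regions in genes over 10000 bp with a known strand, 21 (3.37%) had their midpoint within 2000 bp of the 3′ end and 57 (9.15%) within 2000 bp of the 5′ end. An even spread over these genes would put 5.00% at each end. Of 283 reverse-side regions, 114 (40.3%) were near the 3′ end and 0 near the 5′ end, against 6.90% for an even spread. Over all 15156 regions in such genes the shares were 23.1% and 6.04%. Of the 1235 MII/zygote-side regions, 21.3% lay outside annotated genes, beside 21.0% of all regions and 0.426% of the reverse side. Their median widths were 241 and 610 bp, and a merged region widens as more libraries add peaks to it. Regions in at least 3 of the 4 that did not meet the rule (5779 regions) had 19.9% near the 3′ end and 3.53% near the 5′ end. The members thus differed from the other regions of the same libraries in this description. By the rule those other regions also had peaks in at least 2 of the 8, and their median width was 582 bp. The part of this breadth in the difference was not tested.

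**Figure D3:**
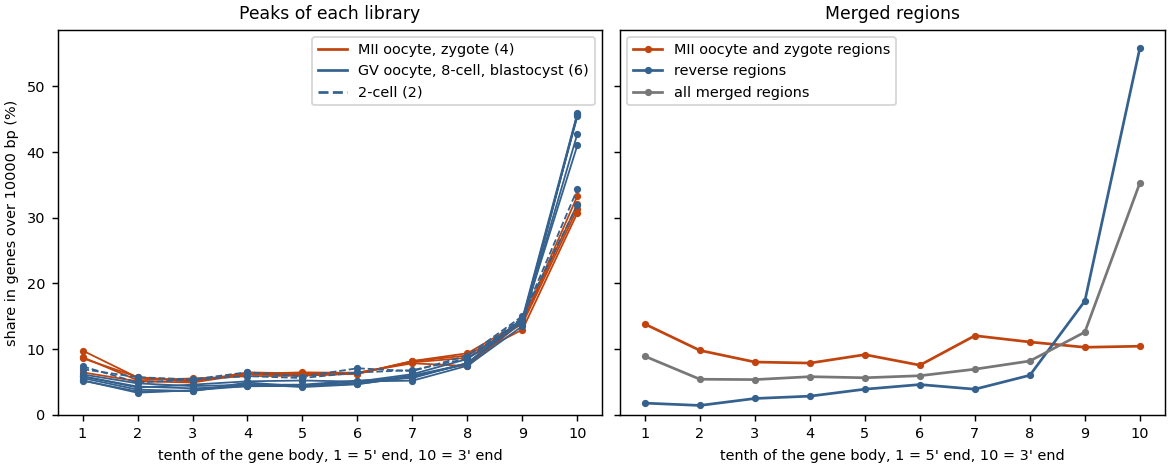
Share of peaks or regions (%) in 10 equal parts of the gene body from the 5′ to the 3′ end, in stranded genes over 10000 bp, for each library (left) and for merged regions (right). Of MII/zygote-side regions, 10.4% lay in the last 10% of the gene, against 55.8% of reverse-side regions and 35.3% of all regions; among libraries the 2-cell lines lie close to the MII oocyte and zygote lines.

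The position of all peaks was then compared between libraries. These measures were added after the position of the chosen regions had been seen, and the libraries still hold the peaks of those regions, so the values are also given without them. In MII oocytes 16.8% and 17.4% of peaks in long stranded genes lay within 2000 bp of the 3′ end, and in zygotes 16.8% and 16.2%. GV oocytes had 27.0% and 27.0%, 2-cell embryos 19.2% and 21.9%, 8-cell embryos 29.3% and 32.3%, and blastocysts 31.2% and 27.1%. The groups did not overlap, and the 2-cell libraries came nearest. The means were 16.8% ± 0.46 (SD, n = 4) and 26.9% ± 4.43 (SD, n = 8), a difference of -10.08 percentage points (4 minus 8; exact two-sided permutation test over the 495 choices of 4 of 12 libraries, p = 0.00202, adjusted p = 0.00303 over the 3 added measures). The 2 replicates of a stage share that stage, and moving whole stages together in the exact permutation test gave p = 0.0667, the smallest that 15 choices of 2 stages allow. With the 8747 peaks in regions of either side left out, the shares were 18.5% ± 0.67 and 26.3% ± 4.78 (n = 4 and 8; exact permutation p = 0.0222, adjusted p = 0.0333; whole stages p = 0.133). The lowest of the 8 (17.7%) then lay just below the lowest of the 4 (17.8%), so the groups overlapped.

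Peaks at gene starts went the other way. Summits in a start window made up 1.30% and 0.825% of peaks in MII oocytes and 1.19% and 1.68% in zygotes, and 0.454% to 0.753% (median 0.605%) in the 8. No library of the 8 reached the lowest of the 4 (1.25% ± 0.35, n = 4, against 0.619% ± 0.094, n = 8; exact permutation p = 0.00202, adjusted p = 0.00303; whole stages p = 0.0667). Without the peaks of the chosen regions these were 1.05% ± 0.39 and 0.627% ± 0.091, with overlap (n = 4 and 8; exact permutation p = 0.0162, adjusted p = 0.0333; whole stages p = 0.0667). The share within 2000 bp of the 5′ end was 5.66% ± 1.29 against 3.92% ± 0.55, with MII oocyte replicate 2 (3.84%) among the values of the 8 (n = 4 and 8; exact permutation p = 0.0141, adjusted p = 0.0141; whole stages p = 0.0667). Without the peaks of the chosen regions the 5′ difference was not called (5.18% ± 1.40 against 4.12% ± 0.61, n = 4 and 8; exact permutation p = 0.0909, adjusted p = 0.0909; whole stages p = 0.200).

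**Figure D4:**
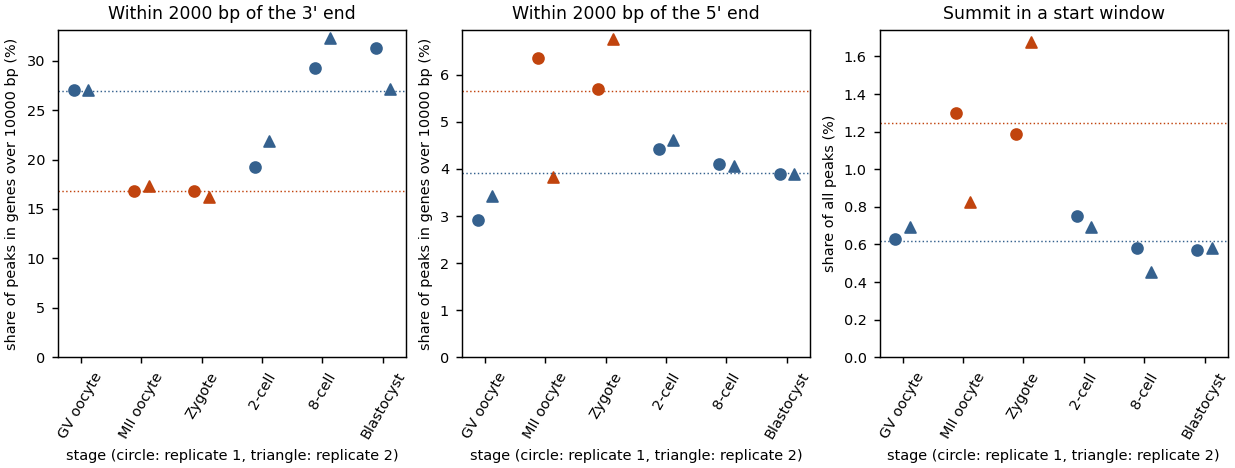
Shares of peaks (%) within 2000 bp of the 3′ end, within 2000 bp of the 5′ end (both in stranded genes over 10000 bp) and with the summit in a start window, by stage; points are libraries and dotted lines the means of the 4 (orange) and the 8 (blue). The 4 MII oocyte and zygote libraries sit at 16.2% to 17.4% near the 3′ end, below the 8 at 19.2% to 32.3%.

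Within the same genes the 3′ difference was smaller. The peaks of the chosen regions were kept in the measures of this paragraph, and no version without them was made. In the 828 genes with a peak in all 12 libraries (540 to 547 per library long and stranded), 14.1% ± 1.48 (n = 4) of peaks lay near the 3′ end in the 4 and 17.3% ± 1.10 (n = 8) in the 8 (exact permutation p = 0.00404, adjusted p = 0.0121 over 3 measures; whole stages p = 0.0667). Here the groups overlapped, since zygote replicate 1 (16.1%) lay above 2-cell replicate 2 (15.7%). The 5′ share in these genes was 4.70% ± 1.17 against 3.99% ± 0.26, which was not called (n = 4 and 8; exact permutation p = 0.121). The last 10% of the gene body held 31.9% ± 1.11 of peaks in the 4 and 41.6% ± 5.56 in the 8 (n = 4 and 8; exact permutation p = 0.0162, adjusted p = 0.0162 over 2 measures; whole stages p = 0.133). The 2-cell libraries, at 31.9% and 34.3%, were inside or next to the range of the 4 on that measure.

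The planned library values gave no adjusted call. The share of peaks near either end of long genes was 22.1% ± 1.01 in the 4 and 30.5% ± 4.21 in the 8 (n = 4 and 8; exact permutation p = 0.00808, adjusted p = 0.0566 over 7 measures; whole stages p = 0.133). Each of the 4 lay at or below 23.1% and each of the 8 at or above 23.5%. The number of peaks was 9198 ± 1698 against 9621 ± 1265 and the number of marked genes 3923 ± 667 against 4642 ± 550 (adjusted p = 0.630 and 0.269, exact permutation tests, n = 4 and 8). The share of peaks outside genes was 23.1% ± 3.14 against 15.8% ± 10.3, and the median fold 5.30 ± 0.50 against 5.76 ± 0.73 (adjusted p = 0.354 and 0.413, exact permutation tests, n = 4 and 8). Share in protein-coding genes and median peak width had adjusted p-values of 0.354 and 0.519.

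Gene by gene, marked and unmarked libraries were counted in the 4 and in the 8 and compared by Fisher's exact test. With Benjamini-Hochberg adjustment over the 4269 genes that could reach an unadjusted p of 0.05, this test called 0 genes in either direction (0.0% and 0.0%). The smallest adjusted p was 0.0707, that of the 34 genes in all 4 and none of the 8 and of the 88 genes with the opposite pattern. Unadjusted, 161 genes (3.77%) were more often marked in the 4 and 273 (6.39%) in the 8. The test treats the 12 libraries as independent. The members are thus a description at this number of libraries.

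The thresholds, the peak filters and single libraries set the counts. When peaks had to reach the common median score, the balance of 217 against 337 genes turned to 238 against 166, and when they had to reach their own library's median fold, to 231 against 214. On the MII/zygote side 34 genes had 4 of 4 and 0 of 8, 57 had 4 and 1, 70 had 3 and 0, and 56 had 3 and 1. On the reverse side 88 had 0 and 8, 120 had 0 and 7, 65 had 1 and 8, and 64 had 1 and 7. Just inside the first threshold were Ubqln1 and Mrps22 (3 of 4, 1 of 8), and just outside were Rgs2 and Obox2 (4 of 4, and both GV oocyte libraries). Just inside the reverse threshold were Fbxo11 and Prkab1 (1 of 4, 7 of 8), and just outside Pramel7 and Elovl6, marked in the 6 libraries from the 2-cell stage on and in no oocyte or zygote. The library missing in the 126 genes marked in 3 of 4 was zygote replicate 1 in 79, the list with the fewest peaks (6914). The lone mark of the 129 reverse-side genes in 1 of 4 was in MII oocyte replicate 1 in 77.

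The count on the MII/zygote side rests on the GV oocyte libraries. Of 3481 genes marked in at least 3 of the 4, 2958 (85.0%) were also marked in both GV oocyte libraries, and 6.23% were members. With a library left out the rule still allowed 1 exception per side, so all members still passed and the counts could only rise. Without GV oocyte replicate 1 the count of MII/zygote-side genes was 645 and without replicate 2 it was 654, since a gene marked in the other GV library then still passes. Without MII oocyte replicate 2 it was 344 and without zygote replicate 1 it was 367. The reverse-side count was 634 and 608 without the GV libraries in turn and 514 without 2-cell replicate 1. The matching region counts rose to 2735 and 2732 (MII/zygote side) and 837 and 803 (reverse side) without a GV library, 1989 and 2134 without MII oocyte replicate 2 or zygote replicate 1, and 748 on the reverse side without 2-cell replicate 1.

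Other choices of 2 stages against 4 give a scale for these counts, as a description. For the 14 other choices the count of genes present in the 2 stages ran from 15 to 818 with a median of 96.5. It exceeded 217 in 3, namely 8-cell with blastocyst (818), GV with MII oocyte (372) and 2-cell with 8-cell (348). The count of genes missing in the 2 stages ran from 10 to 494 with a median of 37, and 8-cell with blastocyst (494) exceeded 337. For regions the present counts ran from 19 to 1691 (median 156), with 2 above 1235, and the missing counts from 7 to 1658 (median 49), with 1 above 470. With the same number of peaks taken from every library, the MII oocyte and zygote choice gave 250 and 255 genes, beside medians of 62.5 and 50 for the others, and 2 and 1 of the others were larger.

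**Figure D5:**
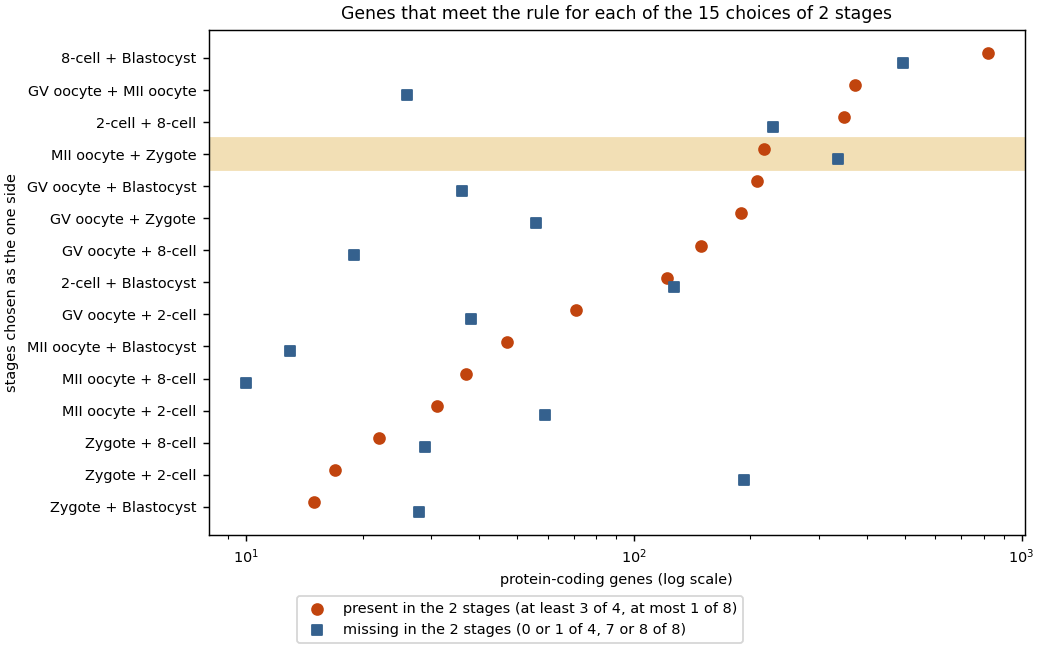
Number of protein-coding genes (log axis) that meet the rule when each of the 15 pairs of stages (rows) is taken as the one side; circles count genes present in the 2 stages and squares genes missing in them. MII oocyte with zygote (shaded) has 3 choices above it for present genes (217) and 1 for missing genes (337).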

How the data were processed

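The 12 immunoprecipitated libraries (6 stages, 2 replicates) have a deposited list of MACS2 narrow peaks each. Per the submitters' processing notes, reads were handled on build mm10 with tools that include HISAT2 2.1.0 and MACS2 2.1.2, whose settings the sources used here do not give. The deposited lists give a score, a fold enrichment (ratio), a −log10 p-value and a −log10 q-value per summit, called by the authors per library. Depth is unknown, and list length can move with it.

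The 143579 summit lines were collapsed to 113764 peaks, 1 per interval with its best summit. Genes came from RefSeq (GRCm38.p6). A gene was marked when a peak overlapped its body by at least 1 bp. Strand was taken from the RefSeq start windows. Analyses used Python 3.11.15, numpy 2.4.6, pandas 2.3.3 and scipy 1.17.1 and were tested on simulated data. Genes were tested by Fisher's exact test and library values by exact permutation, at an adjusted p of 0.05. P-values describe the 12 libraries, whose spread mixes differences between stages with differences between the 2 pools of a stage.

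Named were the 15 genes per side with the largest difference in the share of marked libraries (ties by mean peak percentile, unnamed models skipped), members of a gene list, 5 regions per side, and 2 genes on each side of each threshold. Members and lists were chosen with earlier results of these data known. Alternatives changed the peak strength, overlap, gene length, region definition, replicate block and libraries used. Not every list member is reported here.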

Additional observations from a re-analysis of the deposited data

How the results depend on the processing

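No alternative emptied either side. Cut to equal list lengths, the libraries gave 310 reverse-side regions. Peaks whose score reached the common median left the reverse side with 166 genes and 186 regions, beside 238 MII/zygote-side genes, and those with a fold at or above the median of the own library 214 and 187, beside 231. Under both filters the larger side turned. Peaks within 2000 bp of a gene end left 131 and 212 genes, and genes under 50000 bp left 143 on the MII/zygote side. All of one side and none of the other left 34 and 88 genes and 243 and 144 regions. Requiring peaks to cover at least 50% of a region left 285 reverse-side regions. Leaving out 1 library could only raise the counts, since the rule still allowed 1 exception per side. It gave 235 to 654 and 341 to 634 genes, and 1255 to 2735 and 479 to 837 regions. Fisher's exact test called 0 genes under each alternative, the replicate block (0 of 3867 tested, 163 and 282 at an unadjusted p of 0.05) and each left-out library included.

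For the planned library values, given as the 4 minus the 8, the score alternative turned the difference in number of peaks (974.8, adjusted p = 0.453, exact permutation) and in marked genes (6.63, adjusted p = 0.994), and brought the difference in median peak width to -63.6 bp (adjusted p = 0.0283). The near-end share passed with equal peak numbers (-8.80 points) and with the score alternative (-9.28 points), both at adjusted p = 0.0283 (exact permutation). Without 1 library in turn it ran from -9.33 to -7.58 points, and passed without 2-cell replicate 1 (adjusted p = 0.0212) or replicate 2 (adjusted p = 0.0424, exact permutation). Over the same omissions the number of peaks ran from -950.7 to 338.3 (higher in the 4 without zygote replicate 1), marked genes from -936.0 to -419.6, width from -26.5 to -9.61 bp, fold from -0.68 to -0.31, protein-coding share from -10.5 to -6.03 points and intergenic share from 5.58 to 9.53 points. The causes were not tested.

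The 3 added measures kept direction and call under the replicate block, equal peak numbers, the score alternative and each left-out library. The fold filter was not run on them. With the peaks of member regions left out, an alternative chosen after seeing the data, the 5′ difference was 1.06 points and lost its call (adjusted p = 0.0909, exact permutation). Their ranges without 1 library were -11.2 to -9.31 points (3′ end), 1.38 to 2.35 (5′ end) and 0.485 to 0.769 (start windows). Same-numbered replicates of different stages did not deviate together (correlations from -0.165 to 0.0249, median -0.0123). With 2 replicates per stage this cannot decide whether the numbers pair the libraries.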
